A study of Mus musculus with 24 samples.

Results

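The transcription factor PAX5 was forced by a retroviral vector into cultured mouse cells labelled ProB that lacked Ebf1, and the RNA of these cells was set against that of the same kind of cells carrying the empty vector. The comparison was chosen by label and covers 4 of the 24 samples of the study, which are 2 libraries with the Pax5 vector (pMiG-Pax5) and 2 with the empty vector (pMiG), over 24506 genes of which 14550 had enough counts to be tested. The study asked how EBF1 and PAX5 act on Myc and on the expansion of these cells. All RNA came from fetal liver cells on the C57BL6/J background, labelled ProB, grown with IL-7, FLT3 ligand and KIT ligand over a layer of OP9 stroma cells. Besides the Ebf1-KO cells with Pax5 and Ebf1-KO cells with the empty vector, the groups used below are Ebf1-KO cells with the Ebf1 vector (pMiG-Ebf1), Pax5-KO cells with the Pax5 vector, Pax5-KO cells with the empty vector and wild-type cells with the empty vector, with 2 libraries each. The labels call the cells transfected, and the protocol describes a retroviral spin infection. They do not say which part of either gene is deleted, whether transduced cells were sorted, how long they grew afterwards, or whether replicates were separate cultures, so the spread behind each p-value is that between these libraries and may be technical.

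EBF1 and PAX5 act one after the other in B cell development. EBF1 opens the B lineage program and turns on Pax5, and PAX5 then commits the cell to that program by raising genes of the B cell receptor and its signalling and by lowering genes of other lineages, such as Flt3, Notch1 and Csf1r. Cells that lack Ebf1 stop before this point, before Pax5 is turned on.

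The promoters of 5 genes whose RNA changed with the Pax5 vector, chosen after their values were seen, are printed to show what stands at their starts, from 250 bases before the annotated start to 50 after it (RefSeq, GRCm38.p6), each read along its gene's own strand. Cd79a encodes a chain through which the B cell receptor signals, Foxo1 a transcription factor of early B cells, Edaradd an adaptor of the ectodysplasin receptor and Erg an ETS factor of stem and progenitor cells, and all of them were higher with Pax5. Notch3, a NOTCH receptor, was lower. Capitals mark a match to the PAX5 core (GCGTGAC or GCATGAC on either strand) in Edaradd, Erg and Notch3 and to the EBF1 palindrome TCCC-2 bases-GGGA in Foxo1. The Cd79a window holds neither. A match is a stretch of letters and shows no binding. Candidates were listed by such matches, so the 5 do not show how common matches are. The PAX5 core stood in 5.41% of the promoters of genes called higher and 5.32% of all. For the EBF1 palindrome these shares were 2.56% and 1.02%. The Cd79a window begins 250 bases before a RefSeq start that lies 14 bases from the start in the count table, and for Notch3 this distance is 38 bases.
Cd79a, chr7:24897247-24897546, plus strand: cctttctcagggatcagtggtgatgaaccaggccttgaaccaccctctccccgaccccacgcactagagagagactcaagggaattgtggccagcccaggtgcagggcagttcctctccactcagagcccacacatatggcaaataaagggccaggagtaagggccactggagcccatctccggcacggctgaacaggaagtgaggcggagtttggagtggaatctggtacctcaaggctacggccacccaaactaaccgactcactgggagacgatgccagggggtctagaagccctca
Foxo1, chr3:52268087-52268386, plus strand: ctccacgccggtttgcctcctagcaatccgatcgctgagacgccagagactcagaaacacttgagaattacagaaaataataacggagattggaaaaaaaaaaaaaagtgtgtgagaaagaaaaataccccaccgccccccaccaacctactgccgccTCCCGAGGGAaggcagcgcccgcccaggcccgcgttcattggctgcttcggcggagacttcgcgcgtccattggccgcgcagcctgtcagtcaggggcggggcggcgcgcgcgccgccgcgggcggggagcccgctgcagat
Edaradd, chr13:12520401-12520700, minus strand: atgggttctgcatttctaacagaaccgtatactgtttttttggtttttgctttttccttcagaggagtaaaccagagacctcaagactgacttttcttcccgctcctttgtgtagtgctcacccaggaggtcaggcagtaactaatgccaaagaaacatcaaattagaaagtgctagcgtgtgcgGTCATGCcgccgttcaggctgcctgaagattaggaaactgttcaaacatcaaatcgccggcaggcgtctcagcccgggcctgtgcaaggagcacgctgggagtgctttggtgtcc
Erg, chr16:95459299-95459598, minus strand: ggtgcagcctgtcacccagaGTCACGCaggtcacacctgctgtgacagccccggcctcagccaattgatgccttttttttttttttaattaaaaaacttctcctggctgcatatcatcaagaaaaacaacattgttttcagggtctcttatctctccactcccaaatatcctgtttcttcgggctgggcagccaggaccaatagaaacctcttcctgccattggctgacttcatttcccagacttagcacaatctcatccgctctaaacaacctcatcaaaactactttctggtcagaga
Notch3, chr17:32166841-32167140, minus strand: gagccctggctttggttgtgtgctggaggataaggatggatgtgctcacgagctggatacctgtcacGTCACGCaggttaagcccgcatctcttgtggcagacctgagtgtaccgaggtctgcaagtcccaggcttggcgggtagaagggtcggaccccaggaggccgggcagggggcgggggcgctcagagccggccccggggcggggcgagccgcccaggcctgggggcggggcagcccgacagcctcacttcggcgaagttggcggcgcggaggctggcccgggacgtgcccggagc

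Levels are scaled counts per 1e6 counts of the library (CPM), and each pair of values gives replicate 1 and then replicate 2. Depth was 21.6 and 28.7 M exon counts (M, 1e6) in Ebf1-KO cells with Pax5 and 20.5 and 27.1 M in Ebf1-KO cells with the empty vector, within a range of 16.1 to 42.1 M over the 14 RNA libraries. A run tag in the column headers parts the libraries by replicate number, and each group holds 1 library of each tag, so the pairs of values are also the values within each tag. Where a fit with this tag as a block changes a call or moves a count by over 1.5 times, its value is given. Pax5 itself (NM_008782, mm10 chromosome 4, 44531506 to 44710440, minus strand) stood at 429 and 399 CPM with the Pax5 vector and 2.24 and 2.49 with the empty vector, a log2 fold change of 7.45 ± 0.35 (± SE, adjusted p = 4.29e-08), and its mean was 111% of that in wild type. Exon counts do not part vector from endogenous Pax5, and Pax5 overlaps 5730488B01Rik and Mir5120 in the annotation. Ebf1 RNA was 252 and 256 CPM with Pax5 and 244 and 282 with the empty vector (adjusted p = 0.948), and since the deleted part is not named these reads do not check the knockout. Ebf1-KO cells with the empty vector lacked the defining pro-B markers, at 0.549 and 0.518 CPM of Cd79a, 0.412 and 0.345 of Vpreb1 and 0.32 and 0.414 of Igll1. Y-linked Kdm5d stood at 104 and 128 CPM in Ebf1-KO cells with Pax5 and 131 and 100.5 with the empty vector, while the 4 Pax5-KO libraries with Pax5 or empty vector lay between 0 and 0.0877 CPM of Kdm5d and at 2453 to 5731 CPM of Xist, so sex and genotype cannot be told apart between the knockouts.

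Pax5 raised more genes than it lowered. With edgeR's quasi-likelihood test and Benjamini-Hochberg adjusted p under 0.05, a gene called higher or lower below, 458 of the 14550 genes tested were higher in Ebf1-KO cells with Pax5 and 136 were lower, which is a background of 3.15% higher and 0.935% lower, or 4.08% in all. With the run tag as a block 652 were higher and 264 lower. The median called rise was 1.53 and the median called fall -1.47 on the log2 scale, and 379 rises and 120 falls were beyond 2-fold. The values of both groups did not overlap in any of the 594 called genes, against 49.5% of all genes tested. Of the 458 higher genes, 37 had under 1 CPM with the empty vector and 10 had no count at all there. With Pax5, 240 of the 458 stood within 2-fold of the wild-type level, 152 stood above that and 21 stood under 10% of it. The same counts were not made for the empty vector or for all genes tested. They therefore do not show how many genes moved toward wild type. The counts depend on each library: 291 were higher and 66 lower without Pax5 replicate 1, 231 and 59 without Pax5 replicate 2, 131 and 28 without empty-vector replicate 1, and 224 and 38 without empty-vector replicate 2.

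**Figure D1:**
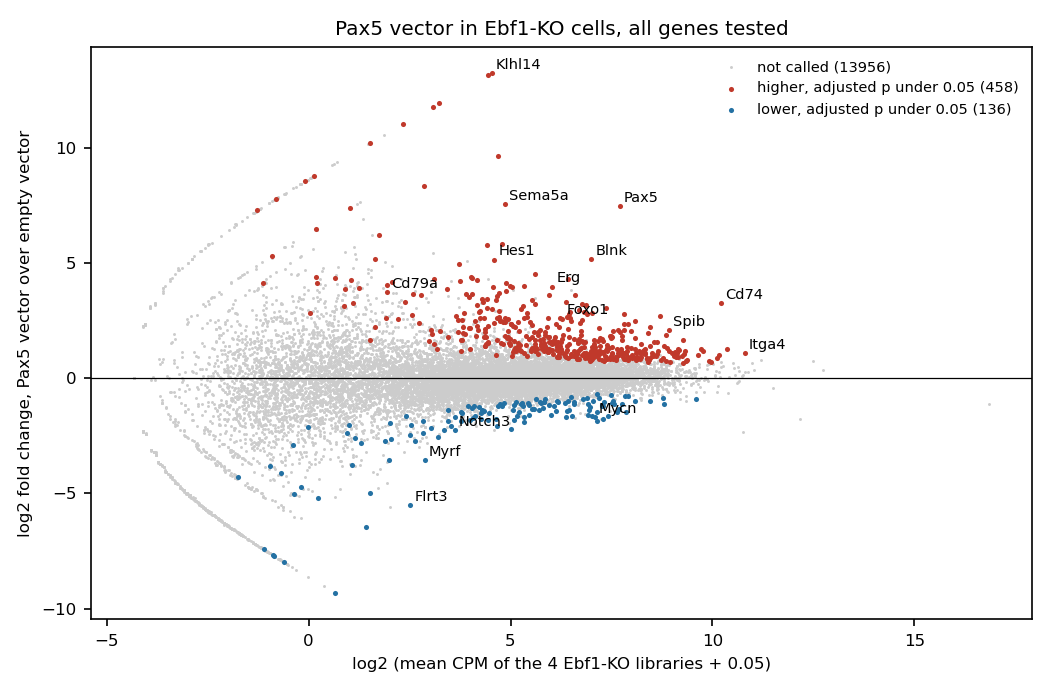
Each point is 1 of the 14550 genes tested, with the log2 of the mean CPM of the 4 Ebf1-KO libraries (0.05 added) on the x axis and the log2 fold change, Pax5 vector over empty vector, on the y axis. The 458 genes called higher are red, the 136 called lower are blue, and the fan at the left holds genes with few or no counts in one of the groups.

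The largest rises were in genes that were silent or nearly so without Pax5. Klhl14, a kelch-family gene of B cells, had 40.8 and 51.5 CPM with Pax5 and no count in either empty-vector library, which makes it at least 795-fold higher (floor of 3 counts over the empty-vector group). Slamf6, a receptor of the SLAM family, had 45.0 and 42.4 CPM with Pax5 and no count without it, at least 737-fold higher. Both stood above their wild-type means of 28.3 ± 1.08 and 26.1 ± 7.56 CPM (± SD, n = 2). Tmc7, a transmembrane channel-like gene, and Pcp4l1, a relative of the calmodulin regulator Pcp4, also had no count with the empty vector. Tmc7 had 16.2 and 21.1 CPM with Pax5, at least 321-fold higher, and Pcp4l1 had 5.26 and 14.8 CPM, at least 182-fold higher. Edaradd had 18.2 and 10.3 CPM with Pax5 and 0.0458 and 0.0345 with the empty vector, a ratio of 348 with a 95% counting interval of 96.0 to 2880. Sema5a, a semaphorin guidance molecule, had 56.3 and 60.0 CPM with Pax5 and 0.458 and 0.173 with the empty vector (log2 fold change 7.55 ± 0.68, adjusted p = 5.54e-05). Bhlhe41, a repressor of the basic helix-loop-helix family, had 52.1 and 55.7 CPM against 1.42 and 0.518, and Adam19, a membrane metalloprotease, 35.8 and 48.1 against 0.229 and 1.24. In each of these genes the lower Pax5 library lay far above the higher empty-vector library. Klhl14, Slamf6, Tmc7, Edaradd, Sema5a and Adam19 passed the test without each of the 4 libraries in turn. Bhlhe41 and Pcp4l1 lost the call without either empty-vector library, at adjusted p up to 0.111 and 0.0633. Klhl14 overlaps 4930426D05Rik, and Adam19 overlaps Mir8100.

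Among the surface genes of the B lineage, Cd79a had 7.93 and 6.21 CPM with Pax5 and 0.549 and 0.518 with the empty vector (log2 fold change 3.72 ± 0.33, adjusted p = 1.45e-05), and this was 1.36% of wild type. Its partner Cd79b reached 32.6 and 32.1 CPM against 3.11 and 3.94 (log2 fold change 3.19 ± 0.24, adjusted p = 3.53e-06), 6.29% of wild type. Cd24a, a glycosylphosphatidylinositol-anchored surface protein of immature cells, had 371 and 407 CPM against 54.9 and 58.0 (adjusted p = 3.12e-06). Siglecg, an inhibitory sialic acid receptor, had 195 and 132 CPM with Pax5 and 7.46 and 9.05 without it (log2 fold change 4.31), which put it at 107% of wild type. Cd72, another inhibitory receptor, had 82.5 and 85.8 CPM against 29.2 and 31.2 (log2 fold change 1.48, adjusted p = 0.0118). Ms4a1, which encodes CD20, had 1.29 and 2.88 CPM with Pax5 and no count with the empty vector, at least 37.3-fold higher, and its call was lost without empty-vector replicate 1 (adjusted p = 0.0511). Cecr2, a bromodomain gene, had 444 and 472 CPM against 79.5 and 83.2 (log2 fold change 2.49 ± 0.17, adjusted p = 1.96e-06). The surrogate light chain genes that EBF1 is known to turn on stayed low. Vpreb1 had 1.68 and 0.227 CPM with Pax5 and 0.412 and 0.345 with the empty vector (adjusted p = 0.421), and Igll1 had 0.345 and 4.89 against 0.32 and 0.414 (adjusted p = 0.0553, or 0.048 with the run tag as a block), so that in each gene 1 Pax5 library stood above the rest. Over the early B lineage list, 13 of 23 genes were higher and 0 lower (edgeR; at unadjusted p under 0.05, 19 and 0; with DESeq2, 16 and 0), with a median log2 fold change of 3.06, or 2.85 with its 3 genes without counts in the empty vector at their bounds, beside -0.01 over all genes tested. In bulk RNA fewer cells of a type and less RNA per cell cannot be told apart, here or below.

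**Figure D2:**
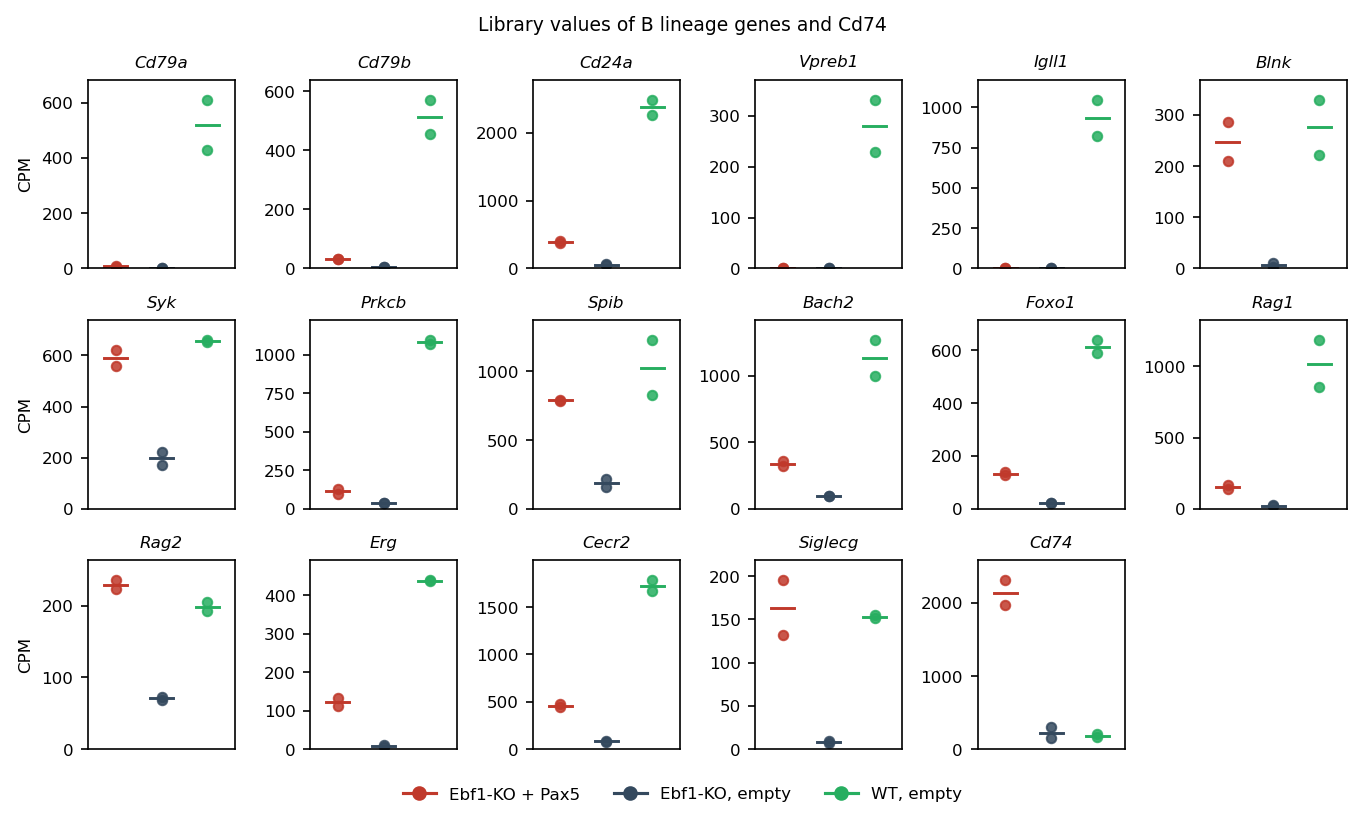
Levels in CPM (y axes, linear, from 0) of 16 B lineage genes and Cd74 in each library, with Ebf1-KO + Pax5 at the left, Ebf1-KO with the empty vector in the middle and wild type at the right; bars are means of 2 libraries. Blnk, Syk, Spib, Rag2 and Siglecg stood near the wild-type points under Pax5, Cd79a, Vpreb1 and Igll1 far below them, and Cd74 above them.

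Some signalling genes beneath the pre-B receptor reached the wild-type range, unlike the receptor chains Cd79a and Cd79b. Blnk, the adaptor that links SYK to downstream enzymes, had 209.9 and 285 CPM with Pax5 and 2.79 and 10.8 with the empty vector (log2 fold change 5.17 ± 0.56, adjusted p = 9.29e-05), and its Pax5 mean was 89.9% of wild type. The kinase gene Syk had 559 and 623 CPM against 172 and 223 (log2 fold change 1.58, adjusted p = 0.000837), 90.0% of wild type. Prkcb, a protein kinase C gene, had 128 and 97.9 against 38.9 and 37.6 (log2 fold change 1.57, adjusted p = 0.000125), 10.5% of wild type. Lyn, a SRC-family kinase gene that overlaps 6330407A03Rik, had 585 and 696 CPM against 216 and 273 (adjusted p = 0.00179, or 0.0608 without empty-vector replicate 1). Groups did not overlap in any of these genes. Of the 14 genes of the list 8 were higher and 0 lower (at unadjusted p under 0.05, 10 and 1; with DESeq2, 9 and 0), with a median log2 fold change of 0.92. Btk, Plcg2 and Inpp5d were also called higher, at adjusted p from 0.0311 to 0.0483, and each of them was called in none of the 4 fits that left out a library (adjusted p up to 0.488).

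Transcription factors of the B lineage were raised in part. Foxo1 had 127 and 138 CPM with Pax5 and 23.0 and 21.3 with the empty vector (log2 fold change 2.58 ± 0.18, adjusted p = 1.96e-06), and its mean under Pax5 was 21.7% of wild type. Spib, an ETS factor of B cells, had 783 and 792 CPM against 156 and 216 (log2 fold change 2.08 ± 0.23, adjusted p = 0.00011), 76.7% of wild type. Bach2, a repressor that holds back plasma cell differentiation and overlaps Bach2os, had 323 and 356 CPM against 94.1 and 95.3 (log2 fold change 1.84, adjusted p = 0.000125). In these 3 genes the groups were well apart. Ikzf3, Irf4, Lef1, Ets1, Pou2f2, Klf2, Tcf4, Bcl11a, Mef2c and Pax5 made up the rest of the 13 of 22 genes called higher, and 0 were lower (at unadjusted p under 0.05, 14 and 0; with DESeq2, 14 and 0), with a median log2 fold change of 0.99. Tcf3, which encodes E2A, and Ikzf1, which encodes IKAROS, did not pass the test. Tcf3 had 99.9 and 162 CPM with Pax5 and 114 and 172 with the empty vector (adjusted p = 0.897), and Ikzf1 had 1719 and 1850 against 1430 and 1863 (adjusted p = 0.867). Tcf4, Bcl11a and Mef2c were less firm, since the call of Tcf4 held without only 1 of the 4 libraries and those of Bcl11a and Mef2c without none (adjusted p up to 0.38), and Irf4 and Klf2 lost theirs without empty-vector replicate 1 or Pax5 replicate 2 and Pou2f2 without empty-vector replicate 1 (adjusted p up to 0.162, 0.153 and 0.107). The call of Lef1 held without each library and was lost in a fit of the compared groups alone (adjusted p = 0.0559).

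Of the recombination genes, Rag1 had 141 and 165 CPM with Pax5 and 21.6 and 23.2 with the empty vector (log2 fold change 2.77 ± 0.22, adjusted p = 4.92e-06), 15.0% of wild type. Rag2, which with Rag1 forms the enzyme that cuts antigen receptor genes and which overlaps B230118H07Rik, had 235 and 223 CPM against 69.0 and 73.2 (log2 fold change 1.69 ± 0.21, adjusted p = 0.00028), 116% of wild type. Dntt, which adds bases at the joints, had 9.91 and 7.28 CPM against 0.686 and 1.35 and did not pass (adjusted p = 0.0591, or 0.049 with the run tag as a block). The 7 genes of DNA end joining on the list were not called, so that 2 of 10 genes were higher and 0 lower (at unadjusted p under 0.05, 3 and 0; with DESeq2, 3 and 0). Rag1 and Rag2 kept their calls without each library in turn.

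Genes that PAX5 is known to raise in B cells were compared with genes it is known to lower, in the Ebf1-KO cells and, as an independent set of 4 libraries, in Pax5-KO cells given the same vector. Of the 24 known activated genes, 16 were higher in Ebf1-KO cells with Pax5 and 0 lower (median log2 fold change 2.04), and 18 were higher and 0 lower in Pax5-KO cells with Pax5 (median 2.20). Besides the genes given above, the 16 include Nedd9, a scaffold of adhesion signalling, with 139 and 154 CPM with Pax5 and 22.5 and 24.2 with the empty vector (log2 fold change 2.65 ± 0.39, adjusted p = 0.00116), and Sdc4, a syndecan, with 103 and 104 against 19.6 and 14.6 (log2 fold change 2.601 ± 0.449, adjusted p = 0.00359). Id3, Cr2, Cd22, Fcer2a, Cplx2, Tnfrsf19, Irf8 and Atp1b1 were not called, although Irf8 passed with the run tag as a block (adjusted p = 0.0402). The backgrounds in the Pax5-KO comparison are 1.64% higher and 2.4% lower, 4.03% in all. Of the 16 known repressed genes only Cnn3, an actin-binding calponin gene, passed in Ebf1-KO cells, where it was higher, and 0 were lower (edgeR; 7 higher and 3 lower at unadjusted p under 0.05; with DESeq2, 2 higher and 3 lower). With the run tag as a block 2 were higher, Cnn3 and Emb, and 3 lower, Flt3, Fcer1g and Xbp1. In Pax5-KO cells 8 of the same 16 were lower with Pax5 and 0 were higher. The call of Cnn3 was lost without empty-vector replicate 1 (adjusted p = 0.0655).

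Flt3 (NM_010229, chromosome 5, 147330742 to 147400489, minus strand), a growth factor receptor of lymphoid progenitors, had 202 and 260.3 CPM in Ebf1-KO cells with Pax5 and 356 and 399 with the empty vector (log2 fold change -0.71 ± 0.20, adjusted p = 0.0616). This fall was not called, but it passed with the run tag as a block (adjusted p = 0.029), with DESeq2 (0.0111) and with the stricter filter on counts (0.0394). In Pax5-KO cells it had 22.4 and 20.5 CPM with Pax5 and 238 and 240.0 with the empty vector (log2 fold change -3.48 ± 0.22, adjusted p = 6.98e-07). The groups did not overlap in either genotype, and the difference of the effects was 2.77 ± 0.28 (adjusted p = 0.000237, interaction term of the same fit). Notch1, the receptor that drives T lineage choice, had 354 and 386 CPM with Pax5 against 399 and 461 in Ebf1-KO cells, and 199.7 and 175 against 811 and 775 in Pax5-KO cells (difference 1.86 ± 0.27, adjusted p = 0.00168). Cd28, a T cell costimulatory receptor, had 112 and 116 CPM against 105 and 105 in Ebf1-KO cells and 9.31 and 10.8 against 52.9 and 44.0 in Pax5-KO cells (difference 2.38 ± 0.36, adjusted p = 0.00255). For Notch1 and Cd28 the fall with Pax5 was called in Pax5-KO cells and not in Ebf1-KO cells. Grap2, an adaptor of T cells and platelets, differed by 2.37 between the genotypes, the adhesion gene Emb by 1.88 and the chemokine Ccl9 by 3.88, which makes 6 of 16 repressed genes with a higher effect in Ebf1-KO cells and 0 with a lower one. The backgrounds of the difference are 2.43% higher and 0.735% lower. In wild type Flt3 stood at 2.91 ± 0.743 CPM and Cd28 at 1.06 ± 0.0362, far under both Ebf1-KO groups. Notch1 overlaps Mir6996, and Grap2 overlaps Mir6957.

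**Figure D3:**
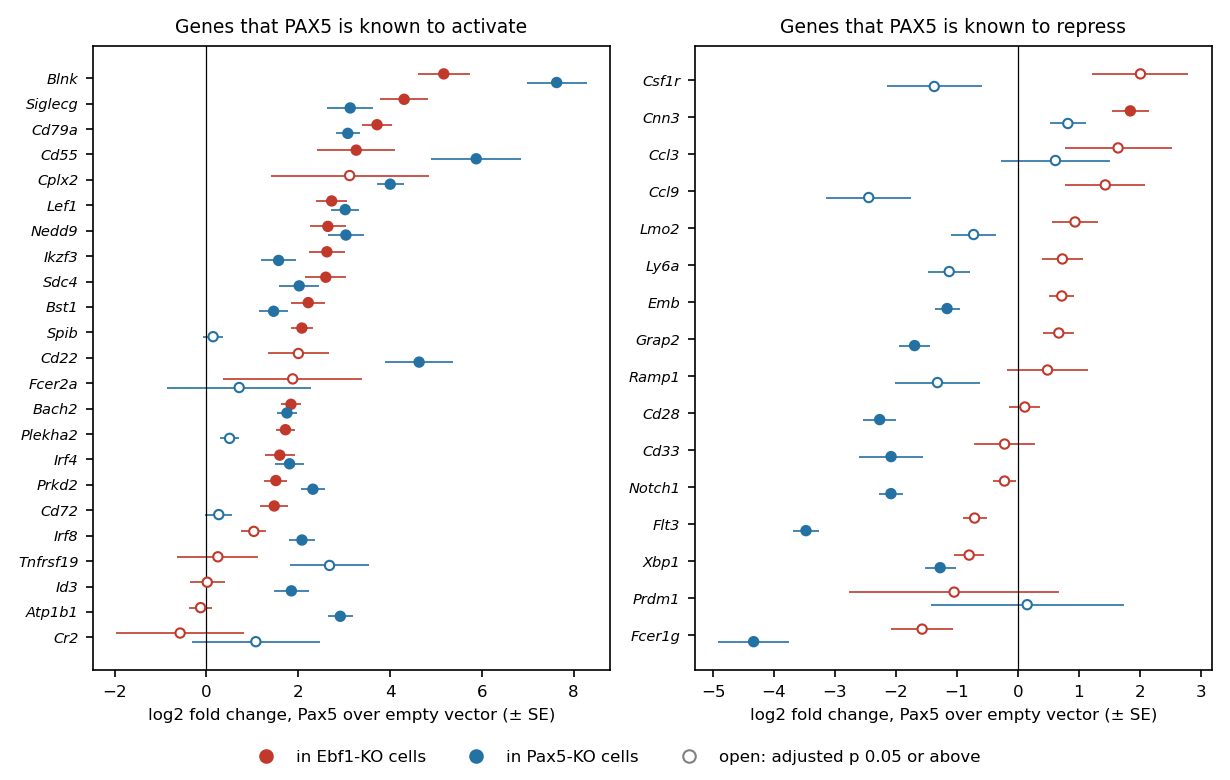
Log2 fold change of Pax5 over empty vector (x axis; bars are ± SE) for 23 of the 24 genes that PAX5 is known to activate (left) and 16 that it is known to repress (right), in Ebf1-KO cells (red) and Pax5-KO cells (blue); open circles did not pass adjusted p under 0.05. The genes called among the activated ones lie right of 0 in both genotypes, and the 8 repressed genes called lower are all points of the Pax5-KO cells.

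Of the NOTCH and T lineage list, 2 of the 14 genes tested were higher and 1 lower with Pax5 in Ebf1-KO cells (5 and 2 at unadjusted p under 0.05). DESeq2 called 5 higher, which adds Dtx1, Notch2 and Zbtb7b, and 1 lower, and the run tag block added Notch2. Il2ra, the alpha chain of the IL-2 receptor, had 53.7 and 54.2 CPM with Pax5 and 9.47 and 11.8 with the empty vector (log2 fold change 2.34 ± 0.27, adjusted p = 0.000117). Hes1, a repressor that NOTCH signals turn on, had 30.2 and 64.0 CPM against 1.01 and 1.62 (log2 fold change 5.14 ± 0.59, adjusted p = 0.00013). Notch3 had 5.47 and 2.98 CPM with Pax5 and 19.3 and 21.3 with the empty vector (log2 fold change -2.27 ± 0.38, adjusted p = 0.00293). None of these 3 genes had overlapping groups, and their calls held without each library in turn. Nrarp, another NOTCH target, had 1.08 and 1.88 CPM with Pax5 and 2.1 and 4.21 with the empty vector (adjusted p = 0.472). Bcl11b, a factor of T cell commitment, had no count with Pax5 and 1.28 and 3.69 CPM with the empty vector, at least 47.9-fold lower without passing the test (adjusted p = 0.0595). Ptcra, the pre-T alpha chain, had no count with Pax5 and 0.32 and 2.24 CPM with the empty vector, at least 25.6-fold lower and not called (adjusted p = 0.0537, or 0.0405 with the run tag as a block).

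Among T cell receptor genes 0 of 14 tested were higher or lower by edgeR (2 and 1 at unadjusted p under 0.05; DESeq2 and the run tag block called Ptcra lower), and Cd3e and Cd3d were at or under 0.483 CPM in all 4 Ebf1-KO libraries. Thy1, a T lineage and progenitor surface gene, had 74.4 and 115 CPM with Pax5 and 107 and 160.4 with the empty vector (adjusted p = 0.567). Of 15 natural killer and innate lymphoid genes 0 were called in either direction (4 and 0 at unadjusted p under 0.05; DESeq2 and the run tag block called Il2rb higher), and Il2rb, the beta chain of the IL-2 and IL-15 receptors, had 148 and 171 CPM with Pax5 and 62.4 and 104 with the empty vector (adjusted p = 0.0565). The summed level of the list was 536 and 537 CPM with Pax5, 294 and 347 CPM with the empty vector and 3.32 and 2.29 CPM in wild type. Of 21 myeloid genes 0 were called (1 and 1 at unadjusted p under 0.05; DESeq2 and the run tag block called Fcer1g lower), with a summed level of 937 and 921 CPM with Pax5, 880 and 860 with the empty vector and 59.3 and 55.6 in wild type. Tyrobp, an adaptor of myeloid and natural killer receptors, had 214 and 171 CPM with Pax5 and 323 and 224 with the empty vector. Of 8 erythroid and megakaryocyte genes tested 0 were called (1 and 1 at unadjusted p under 0.05; DESeq2, 0), and their summed level was 4.82 to 5.17 CPM with Pax5 and 6.29 to 15.7 with the empty vector. Alas2, of heme synthesis, had 2.59 and 0.68 CPM with Pax5 and 12.2 and 2.56 with the empty vector (adjusted p = 0.4). Of 10 stromal genes tested Col5a2, a fibrillar collagen gene, was called higher, with 1.94 and 0.162 CPM with Pax5 and no count with the empty vector. Its call held only without Pax5 replicate 2 (adjusted p up to 0.144). Col3a1, a defining gene of stroma, and Postn had no count in the 4 libraries. The defining genes Col1a1 and Col1a2 had 30 and 6 counts over both Pax5 libraries (0.554 and 0.111 CPM). Col1a2 had 3 counts over both empty-vector libraries. The summed stromal level was 185 and 214 CPM with Pax5 and 186 and 240.0 with the empty vector. The part of natural killer, myeloid or stromal cells in any result was not tested.

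Genes of stem and progenitor cells moved both ways, with 3 of 14 higher and 2 lower (5 and 3 at unadjusted p under 0.05; with DESeq2, 3 and 3). Erg had 134 and 113 CPM with Pax5 and 5.17 and 10.4 with the empty vector (log2 fold change 3.97 ± 0.31, adjusted p = 4.28e-06), 28.1% of wild type. Cd93, a surface marker of early B cells and progenitors, had 799 and 968 CPM against 358 and 425 (log2 fold change 1.17, adjusted p = 0.00784), and Hhex, a homeobox factor, 169.9 and 225 against 69.2 and 83.8 (log2 fold change 1.37, adjusted p = 0.0043). Hoxa9, a homeobox factor of progenitors, had 95.7 and 68.7 CPM with Pax5 and 314 and 206 with the empty vector (log2 fold change -1.66 ± 0.39, adjusted p = 0.0266). Mycn, a MYC-family gene, had 63.0 and 64.6 against 176 and 238 (log2 fold change -1.70 ± 0.40, adjusted p = 0.0266). The groups did not overlap in these 5 genes. Only the Erg call held without each library in turn; Cd93 and Hhex lost it without empty-vector replicate 1 or Pax5 replicate 2 (adjusted p up to 0.138 and 0.117), Hoxa9 without all but empty-vector replicate 2 (up to 0.288) and Mycn without any 1 of the 4 (up to 0.189).

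Genes of MHC class II, which present antigen on B cells, dendritic cells and macrophages, rose in part and past the wild-type level. Their summed level was 2576 and 2991 CPM with Pax5, 260.4 and 453 with the empty vector and 322 and 305 in wild type. Cd74, the invariant chain, had 1974 and 2307 CPM with Pax5 and 147 and 298 with the empty vector (log2 fold change 3.26 ± 0.36, adjusted p = 9.6e-05), against 182 ± 28.6 CPM in wild type. H2-Eb1, a beta chain, had 70.6 and 115 CPM against 3.16 and 4.97 (log2 fold change 4.505 ± 0.721, adjusted p = 0.00211), and the class II activator Ciita 41.1 and 47.9 against 2.75 and 2.97 (log2 fold change 3.96 ± 0.97, adjusted p = 0.0352). None of the 3 had overlapping groups. All 10 genes of the list had a log2 fold change above 0, with a median of 2.77, and 3 were called higher and 0 lower (7 and 0 at unadjusted p under 0.05; with DESeq2, 4 and 0). H2-Aa had 149 and 186 CPM with Pax5 and 10.8 and 13.0 with the empty vector and did not pass (adjusted p = 0.0901), except in a fit of the compared groups alone (0.000498). H2-Ab1 passed with the run tag as a block (adjusted p = 0.0332). In Pax5-KO cells 0 of the 10 were higher with Pax5 and 2 were lower (1 and 4 at unadjusted p under 0.05; with DESeq2, 0 and 4), and the Cd74 effects differed by 4.52 ± 0.49 (adjusted p = 0.000237). The dendritic and myeloid gene Itgax had 39.3 and 56.0 CPM with Pax5 and 16.2 and 17.7 with the empty vector (adjusted p = 0.543) beside this rise, and the part of such cells in it was not tested. Ciita was called in none of the 4 fits that left out a library (adjusted p up to 0.286), and H2-Eb1 lost its call without empty-vector replicate 1 (adjusted p = 0.0558). Cd74 kept its call throughout and overlaps Mir5107.

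**Figure D4:**
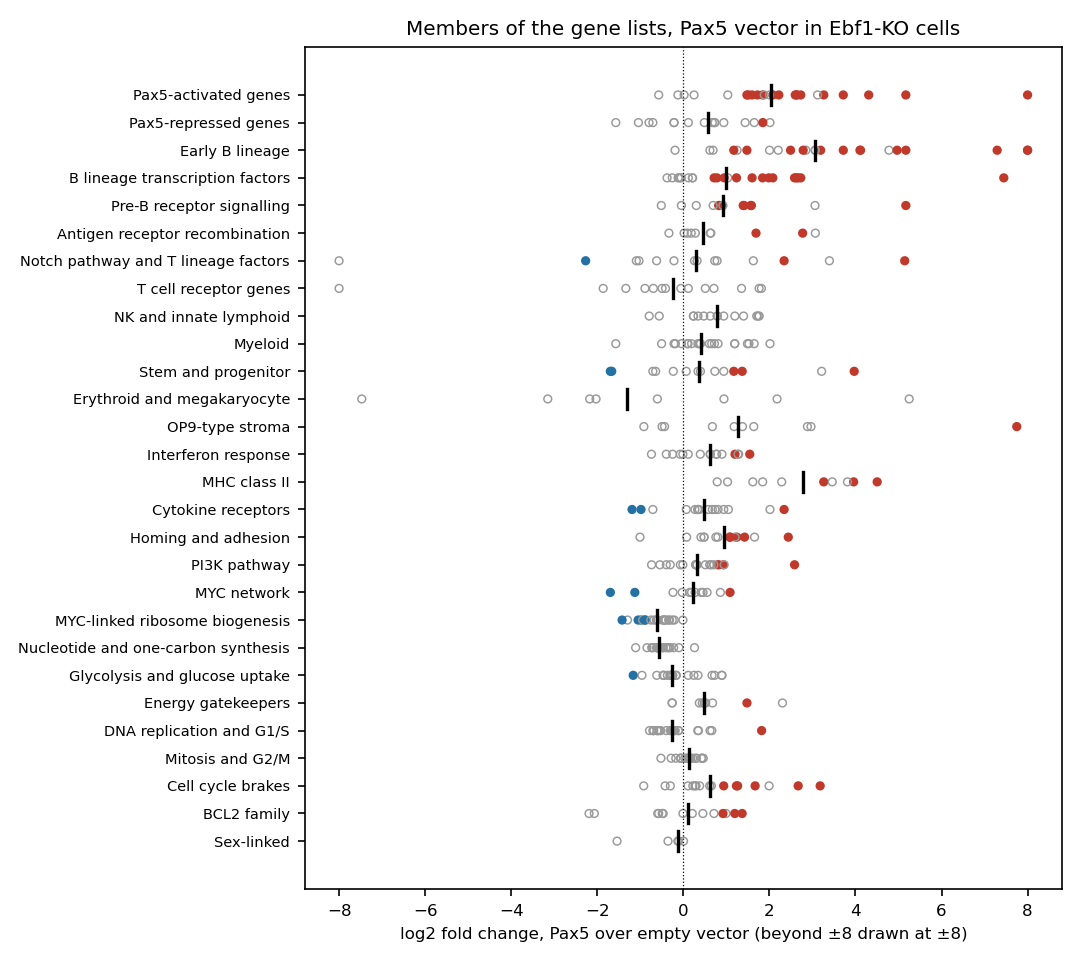
Log2 fold change, Pax5 over empty vector in Ebf1-KO cells (x axis, values beyond 8 in size drawn at 8), of every tested member of the 28 gene lists, 1 line per list. Filled red points were called higher, filled blue points lower, open grey points were not called, and the black bar is the list's median; the Pax5-activated, early B lineage and MHC class II lists lie furthest to the right.

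Of 16 interferon genes, 2 were higher and 0 lower (7 and 0 at unadjusted p under 0.05; with DESeq2, 3 and 0). Ifit2, an interferon-induced gene, had 92.4 and 123 CPM with Pax5 and 41.2 and 32.9 with the empty vector (adjusted p = 0.0432) and was called in none of the 4 fits that left out a library (adjusted p up to 0.254).

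Myc (NM_010849, chromosome 15, 61985341 to 61990361, plus strand), the growth-driving transcription factor the study is about, had 66.8 and 84.3 CPM in Ebf1-KO cells with Pax5 and 143 and 187 with the empty vector, a log2 ratio of -1.10 in replicate 1 and -1.15 in replicate 2 (fitted log2 fold change -1.13 ± 0.25, adjusted p = 0.0209). In Pax5-KO cells Myc had 499 and 670.1 CPM with Pax5 and 277 and 344 with the empty vector (log2 fold change 0.91 ± 0.25, adjusted p = 0.06, not called). The rise in Pax5-KO cells passed with the run tag as a block (adjusted p = 0.00893), with DESeq2 (0.0116), with no filter on counts (0.00773), with the stricter filter (0.0357) and in a fit of the compared groups alone (0.0337). The groups did not overlap in either genotype, and the difference of the effects was -2.04 ± 0.36 (adjusted p = 0.00624), called without each of the 8 libraries in turn. The fall in Ebf1-KO cells was less firm on its own. It lost its call without empty-vector replicate 2 (adjusted p = 0.182), Pax5 replicate 1 (0.161) and Pax5 replicate 2 (0.0502). Of the 12 genes of the MYC network, Myc and Mycn were called lower and Mlxip, a partner of the MYC-like factor MLX, higher, with 250.4 and 244 CPM against 117 and 116 (log2 fold change 1.09, adjusted p = 0.00441; lost without either empty-vector library, up to 0.0848). Max, the obligate partner of MYC, had 310.4 and 408 CPM against 266 and 273 and did not pass (adjusted p = 0.343).

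All 24 genes of ribosome assembly that MYC is known to raise had a log2 fold change below 0 with Pax5, with a median of -0.62, and 4 were called lower and 0 higher (11 and 0 at unadjusted p under 0.05; with DESeq2, 6 and 0). Gnl3, a nucleolar GTPase gene, had 39.3 and 36.6 CPM with Pax5 and 107 and 96.4 with the empty vector (log2 fold change -1.42 ± 0.21, adjusted p = 0.00125). Nop58, a core protein of small nucleolar particles, had 89.4 and 118 against 205 and 224 (log2 fold change -1.05, adjusted p = 0.00905). Its partner Nop56 had 54.5 and 61.4 against 124 and 105 (adjusted p = 0.0239), and Wdr43, a processome gene, 67.0 and 88.3 against 145 and 144 (adjusted p = 0.0205). The groups of these 4 genes did not overlap. The Gnl3 call held without each library in turn, and 1 of the 24 was called without Pax5 replicate 1 or either empty-vector library. Gnl3, Nop56, Nop58 and Wdr43 each overlap snoRNA genes, Gnl3 also Glt8d1 and Nop56 also Idh3b. In Pax5-KO cells the median of the 24 was 0.57 and none was called in either direction (11 higher and 0 lower at unadjusted p under 0.05). DESeq2 called 2 higher there, and the run tag block called 5 higher, Ddx21, Utp20, Npm1, Ncl and Wdr43. By the interaction term 7 of the 24 differed between the genotypes, all 7 lower in Ebf1-KO cells. Of 22 genes of nucleotide and one-carbon synthesis 0 were called (0 higher and 9 lower at unadjusted p under 0.05; DESeq2 and the run tag block called Phgdh and Shmt2 lower), with a median of -0.57. Paics of purine synthesis, which overlaps Ppat, had 361 and 491 CPM with Pax5 and 544 and 748 with the empty vector (adjusted p = 0.225).

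Of 20 glycolysis genes 1 was lower and 0 higher: Slc16a1, a lactate transporter gene, had 13.8 and 28.2 CPM with Pax5 and 44.4 and 49.9 with the empty vector (log2 fold change -1.17 ± 0.28, adjusted p = 0.0292), a call lost without either empty-vector library or Pax5 replicate 1 (up to 0.21). Txnip, an inhibitor of glucose uptake that overlaps Gm15441, had 451 and 429 CPM against 172 and 144 (log2 fold change 1.48 ± 0.21, adjusted p = 0.000901), the 1 called gene of 10 energy gatekeepers. Its call held without each library. Of 24 replication and G1/S genes E2f2, an E2F factor, was called higher, with 249 and 313 CPM against 76.1 and 83.3 (log2 fold change 1.82 ± 0.24, adjusted p = 0.000535), and 0 were lower, although 19 of the 24 lay below 0 (2 higher and 7 lower at unadjusted p under 0.05). The run tag block added Ccnd3 as higher and Mcm6 as lower. Of 20 mitosis genes 0 were called (1 and 1 at unadjusted p under 0.05; DESeq2, 0), and the proliferation marker Mki67 had 1765 and 1901 CPM with Pax5 and 1235 and 1424 with the empty vector (adjusted p = 0.215). DESeq2 called Cdk4 lower.

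Some brakes on the cell cycle rose, with 6 of 17 tested called higher and 0 lower (9 and 0 at unadjusted p under 0.05; with DESeq2, 8 and 0). Btg1, an antiproliferative gene, had 233 and 187 CPM with Pax5 and 27.1 and 19.3 with the empty vector (log2 fold change 3.18 ± 0.33, adjusted p = 7.73e-05), and its relative Btg2 had 139.5 and 97.1 against 49.6 and 50.9 (log2 fold change 1.23, adjusted p = 0.00441). Klf2, a factor of quiescent lymphocytes, had 38.4 and 52.0 CPM against 5.58 and 8.6 (log2 fold change 2.67 ± 0.51, adjusted p = 0.0069). Cdkn2d, an inhibitor of CDK4 and CDK6, had 75.4 and 72.8 against 24.8 and 21.9 (log2 fold change 1.67, adjusted p = 0.0149). Tob1 and Tob2 were the other called members. The Btg1 call alone held without each library in turn: 1 of the list was called without empty-vector replicate 1 and 3 without either Pax5 library. Cdkn1a and Cdkn1b, which encode p21 and p27, did not pass (adjusted p = 0.825 and 0.736).

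Among cytokine receptors and their feedback genes 1 of 16 was higher and 2 were lower (7 and 3 at unadjusted p under 0.05). DESeq2 and the run tag block each called 3 higher, which adds Cish and Il2rb, and 3 lower, which adds Flt3. Il7r, the alpha chain of the receptor for the IL-7 in the medium, had 98.9 and 89.8 CPM with Pax5 and 209.9 and 221 with the empty vector (log2 fold change -1.19 ± 0.20, adjusted p = 0.00312). Socs2, a feedback inhibitor of cytokine signals, had 202 and 265 CPM against 434 and 489.7 (log2 fold change -0.98 ± 0.23, adjusted p = 0.0258), and Il2ra, given above, was the gene called higher. The groups did not overlap, and the Il7r call held without each library, whereas that of Socs2 held only without Pax5 replicate 2 (up to 0.2). Of the BCL2 family, 3 of 14 were higher and 0 lower (5 and 1 at unadjusted p under 0.05; with DESeq2, 4 and 0), all 3 of them inducers of cell death. Bmf had 258 and 265 CPM with Pax5 and 87.2 and 116 with the empty vector (log2 fold change 1.37, adjusted p = 0.00746), Bcl2l11, which encodes BIM, 322 and 411 against 168 and 218 (log2 fold change 0.92, adjusted p = 0.0186), and Pmaip1, which encodes NOXA, 61.6 and 72.9 against 24.2 and 34.5 (log2 fold change 1.20, adjusted p = 0.0384). Bmf and Bcl2l11 lost their calls without empty-vector replicate 1 or Pax5 replicate 2 and Pmaip1 without any 1 library (adjusted p up to 0.162, 0.309 and 0.465). The survival genes Bcl2 and Mcl1 did not pass. Bcl2 had 308 and 306 CPM with Pax5 and 382 and 467 with the empty vector (edgeR adjusted p = 0.229). Mcl1 had 314 and 477 against 213 and 269.5 (adjusted p = 0.19). Bcl2l1, another survival gene, was not called by edgeR, but DESeq2 called it higher (log2 fold change 1.01, adjusted p = 0.0335).

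**Figure D5:**
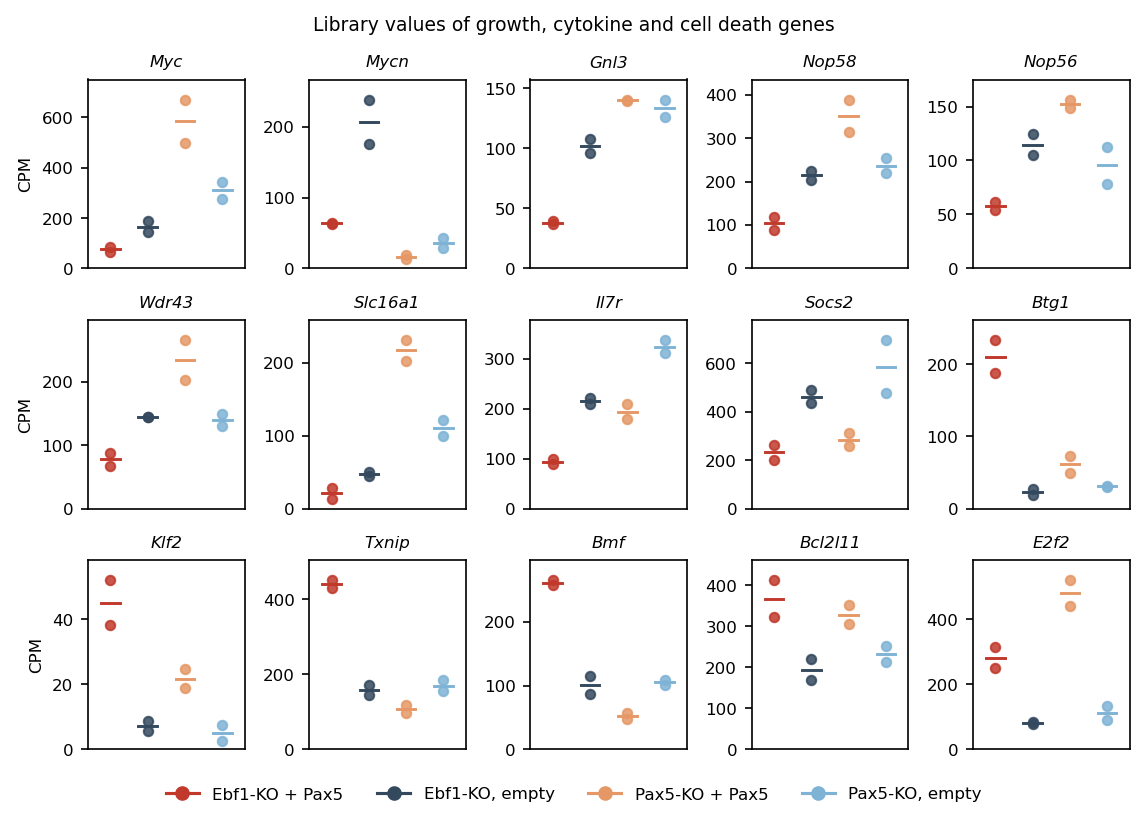
Levels in CPM (y axes, linear, from 0) of 15 growth, cytokine and cell death genes in each library, in the order Ebf1-KO + Pax5, Ebf1-KO empty, Pax5-KO + Pax5, Pax5-KO empty; bars are means of 2 libraries. Myc, Gnl3, Nop58, Nop56, Wdr43 and Slc16a1 stood lower with Pax5 in Ebf1-KO cells, and in Pax5-KO cells their Pax5 means stood above the empty-vector means.

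Of 14 homing and adhesion genes 5 were higher and 0 lower (8 and 1 at unadjusted p under 0.05; with DESeq2, 7 and 1; with the run tag block, 6 and 1). S1pr1, a receptor that guides lymphocytes out of tissues, had 61.2 and 62.4 CPM with Pax5 and 8.739 and 14.02 with the empty vector (log2 fold change 2.44 ± 0.34, adjusted p = 0.000636), and S1pr4 53.7 and 55.7 against 17.8 and 23.0 (log2 fold change 1.42, adjusted p = 0.00359). Cxcr4, which holds B cell precursors in the marrow, had 189.6 and 179.9 CPM against 83.2 and 72.8 (log2 fold change 1.24 ± 0.19, adjusted p = 0.00125). The integrin chain Itgal had 475 and 506 CPM against 189 and 274 (adjusted p = 0.0133), and Itga4 2338 and 2483 against 988 and 1292 (adjusted p = 0.0179). S1pr1 and Cxcr4 kept their calls without each library in turn. S1pr4, Itgal and Itga4 lost theirs without empty-vector replicate 1 (0.121 to 0.271), Itgal also without Pax5 replicate 2 and Itga4 without either Pax5 library. Itga4 overlaps Cerkl. Of 19 PI3K pathway genes 3 were higher and 0 lower (8 and 0 at unadjusted p under 0.05; with DESeq2, 6 and 0; with the run tag block, 5 and 0): Foxo1, given above, Pik3cg, a catalytic subunit of leukocytes, with 288 and 342 CPM against 156 and 174 (adjusted p = 0.00993), and Inpp5d, which encodes the phosphatase SHIP1, with 231 and 247 against 119 and 151 (adjusted p = 0.0311). Pik3cg held only without Pax5 replicate 1 (up to 0.192) and Inpp5d without none (up to 0.38).

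The 10 largest called falls were of genes with varied roles. They were taken among genes with at least 10 CPM in the higher group and groups that did not overlap. Flrt3, an adhesion molecule, had 0.215 and 0.259 CPM with Pax5 and 8.05 and 14.2 with the empty vector (log2 fold change -5.52 ± 0.97, adjusted p = 0.00389), and Myrf, a factor known from myelin-forming cells, 1.85 and 0.485 against 13.0 and 13.8 (log2 fold change -3.56 ± 0.61, adjusted p = 0.00353). Eya1, a developmental coactivator, had 11.7 and 11.5 CPM against 51.4 and 55.0 (log2 fold change -2.20 ± 0.57, adjusted p = 0.0456). The others were Ppic, a cyclophilin gene, Ninl, a centrosomal gene, Tubb3, a tubulin gene, Notch3, Stau2, an RNA-binding protein gene, Nefh, a neurofilament gene, and Timp3, a metalloprotease inhibitor gene, with log2 fold changes from -2.75 for Ppic to -2.08 for Timp3. Non-overlap of the groups was thus a condition of the choice. The calls of Flrt3, Myrf and Notch3 held without each library in turn, those of Ninl, Tubb3 and Timp3 without only 1 of the 4, and those of Ppic, Stau2, Eya1 and Nefh without none (adjusted p up to 0.247). Timp3 overlaps Syn3.

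The same vector had been put into Pax5-KO cells, so the effects of Pax5 were compared between the knockouts, which share no library. Of the 458 genes called higher in Ebf1-KO cells, 113 were also called higher in Pax5-KO cells, which is 24.7% of that list and 47.5% of the 238 genes called higher there. Of the 136 called lower, 32 were called lower in Pax5-KO cells, 23.5% of that list and 9.17% of the 349. Another 29 of the 458 were called lower in Pax5-KO cells, and 1 of the 136, Fabp5, a fatty acid binding protein gene, was called higher there. Across the 14550 genes the log2 fold changes correlated with r = 0.167, a description over genes that are not independent. By the interaction term 353 genes had a higher effect in Ebf1-KO cells and 107 a lower one, 3.16% of those tested. With the run tag as a block 209 were lower. Of the Ebf1-KO libraries, leaving out Pax5 replicate 1 gave 264 higher and 55 lower, Pax5 replicate 2 gave 193 and 61, empty-vector replicate 1 gave 110 and 23, and empty-vector replicate 2 gave 207 and 36. Of the Pax5-KO libraries, leaving out Pax5 replicate 1 gave 170 and 56, Pax5 replicate 2 gave 123 and 21, empty-vector replicate 2 gave 164 and 29, and the unnumbered empty-vector library gave 268 and 74. The calls of Pax5 in Pax5-KO cells in these last 4 fits were 138 higher and 136 lower, 105 and 117, 95 and 168, and 144 and 251.

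Some genes had a higher effect of Pax5 in Ebf1-KO cells than in Pax5-KO cells. Of those given here, Rasgrp3, Lrrc15 and Cecr2 were called in opposite directions. Rasgrp3, an activator of RAS, had 27.7 and 54.9 CPM with Pax5 and 6.04 and 4.42 with the empty vector in Ebf1-KO cells. In Pax5-KO cells it had 37.8 and 34.8 with Pax5 and 379.5 and 476 with the empty vector (difference 6.54 ± 0.46, adjusted p = 8.83e-06). Lrrc15, a leucine-rich repeat membrane gene, had 4.22 and 2.62 CPM against 0.0458 and 0.38 in Ebf1-KO cells and 4.75 and 4.1 against 76.2 and 93.4 in Pax5-KO cells (difference 8.15 ± 1.15, adjusted p = 0.00136). In both genes the Pax5 libraries of the knockouts stood at similar levels and the empty-vector libraries far apart. Cecr2, higher with Pax5 in Ebf1-KO cells, had 968 and 937 CPM with Pax5 and 1531 and 1405 with the empty vector in Pax5-KO cells (difference 3.12 ± 0.24, adjusted p = 8.83e-06). Hes1, also higher there, had 46.2 and 54.6 CPM with Pax5 and 44.0 and 83.7 with the empty vector in Pax5-KO cells (not called, adjusted p = 0.855; difference 5.49 ± 0.75, adjusted p = 0.00112). Slamf6 had 4.33 and 3.31 CPM with Pax5 and 0 and 1.73 with the empty vector in Pax5-KO cells (adjusted p of the difference = 0.0147), Itgax 0.0466 and 0.0566 against 0.711 and 9.62 (adjusted p = 0.0309) and Col5a2 18.7 and 18.3 against 34.1 and 34.3 (adjusted p = 0.027). Of these, Slamf6, Itgax and Col5a2 lost the call of the difference without 4, 6 and 6 of the 8 libraries in turn (adjusted p up to 1, 0.222 and 0.0983).

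Other genes had a lower effect of Pax5 in Ebf1-KO cells than in Pax5-KO cells. Alpl, an alkaline phosphatase gene, had no count in Ebf1-KO cells with Pax5 and 0.0915 and 0 CPM with the empty vector, against 32.8 and 44.5 CPM with Pax5 and none with the empty vector in Pax5-KO cells, where it was at least 739-fold higher (adjusted p of the difference = 0.00797, lost without empty-vector replicate 1 of the Ebf1-KO cells). Enpep, an aminopeptidase of early B cells, had 1.08 and 0.485 CPM against 0.0458 and 0.0345 in Ebf1-KO cells, and 64.4 and 66.0 with Pax5 and none with the empty vector in Pax5-KO cells, at least 1210-fold higher (adjusted p of the difference = 0.0201, lost without 3 of the 8 libraries, up to 0.139). Atp1b1, a subunit of the sodium pump that PAX5 is known to raise, had 68.3 and 56.7 CPM with Pax5 and 60.9 and 75.5 with the empty vector in Ebf1-KO cells and 314 and 349 against 54.3 and 33.7 in Pax5-KO cells (difference -3.04 ± 0.36, adjusted p = 0.000416). Eps8l2, an actin regulator, had 0.302 and 0.0647 CPM against 1.28 and 0.725 in Ebf1-KO cells and 12.2 and 7.87 against 1.28 and 0.351 in Pax5-KO cells (difference -6.21, adjusted p = 0.0086). Pcdh9, a protocadherin gene, had no count with Pax5 and 1.01 and 1 CPM with the empty vector in Ebf1-KO cells, and 25.8 and 23.0 against 16.8 and 9.47 in Pax5-KO cells (adjusted p of the difference = 0.00136). Zfp521, a zinc finger gene of progenitors, had no count with Pax5 and 0.32 and 0.0345 CPM with the empty vector in Ebf1-KO cells, and 43.8 and 25.6 against 7.49 and 4.8 in Pax5-KO cells (adjusted p of the difference = 0.0198, lost without 4 of the 8 libraries, up to 0.367). In wild type Alpl stood at 152 ± 24.8 CPM, Enpep at 259.9 ± 26.4 and Zfp521 at 83.0 ± 3.76. Atp1b1 overlaps Nme7, and Eps8l2 overlaps B230206H07Rik.

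Pax5 and Ebf1 vectors in the same Ebf1-KO cells gave different levels of many B lineage genes. Between them 795 genes were higher and 689 lower with Pax5 (5.46% and 4.74% of those tested, 10.2% in all). Blnk had 209.9 and 285 CPM with the Pax5 vector and 28.1 and 33.3 with the Ebf1 vector (log2 difference 3.01, adjusted p = 0.00136). Cd79a ran the other way, at 7.93 and 6.21 CPM with Pax5 and 34.2 and 41.7 with Ebf1 (log2 difference -2.43 ± 0.26, adjusted p = 3.44e-05). The surrogate light chain genes were almost absent with Pax5, at 0.345 and 4.89 CPM of Igll1 against 852 and 867 with Ebf1 (adjusted p = 4.51e-06) and 1.68 and 0.227 of Vpreb1 against 138 and 126 (adjusted p = 3.29e-06); Vpreb1 has the near-identical copy Vpreb2. Sema5a, Klhl14, Tmc7, Rd3, a retinal guanylate cyclase regulator gene, and Pald1, a paladin phosphatase gene, had the 5 largest called rises with Pax5 over Ebf1. Rd3 had 28.4 and 30.3 CPM with Pax5 and 0 and 0.0285 with Ebf1, a ratio of 1650 with a 95% counting interval of 295 to 65100, and Pald1 had 25.8 and 29.1 against 0.0482 and 0.114 (log2 difference 8.24, adjusted p = 0.00014). Tnnt2, a cardiac troponin gene, had no count with Pax5 and 150.2 and 182 CPM with Ebf1, at least 3060-fold lower, and the collagen gene Col26a1, the stem cell receptor gene Lgr6, the carbonic anhydrase gene Car3 and the desmosome gene Pkp1 likewise had none with Pax5 and were at least 484-fold lower. Tnnt2 and Car3 were near 0 with the empty vector too, at 9 and 4 counts over both libraries (0.177 and 0.0787 CPM). Col26a1, Lgr6 and Pkp1 had at most 3 counts over both empty-vector libraries. The high level of all 5 genes was thus that with the Ebf1 vector. Tnnt2, Col26a1, Lgr6 and Pkp1 were also at or under 0.106 CPM on average in wild type. Myc had 66.8 and 84.3 CPM with Pax5 and 308 and 418 with Ebf1 (log2 difference -2.26 ± 0.26, adjusted p = 5.69e-05). Blnk, Cd79a, Myc and the 10 genes of largest difference kept their calls without each library in turn, and Igll1 and Vpreb1 were not refitted. The counts were 317 higher and 357 lower without Ebf1 replicate 1, 345 and 290 without Ebf1 replicate 2, and 481 and 437 without Pax5 replicate 2; without Pax5 replicate 1, 386 were lower.

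Genes called higher with Pax5 often lay near sites where EBF1 binds in another B lineage cell, the Abelson-transformed pre-B line 230-238, for which the authors gave 17230 peaks from a single list. A peak lay in the gene or within 10 kb of it for 80.3% of the 458 genes called higher (exact 95% interval 76.4 to 83.9), 61.0% of the 136 called lower (52.3 to 69.3) and 57.9% of all genes tested. The called higher genes were also longer, with a median span of 43.6 kb against 16.0 kb for those called lower and 19.1 kb for all, and the shares are not adjusted for length. Within 1 kb of the gene start the shares were 36.0%, 21.3% and 27.4% in the same order. Cd79a and Cd79b had a peak within 1 kb of the start. Blnk, Foxo1, Spib and Pax5 had peaks within the wider window but none there, and Edaradd and Rag1 had none in either window.

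The promoter windows were searched for short motifs. Of the genes tested, 10945 had a promoter in the RefSeq table, 351 of them called higher and 102 called lower. The PAX5 core GCGTGAC or GCATGAC stood in 5.41% of the promoters of genes called higher, 4.9% of those called lower and 5.32% of all. The EBF1 palindrome TCCC-2 bases-GGGA stood in 2.56%, 1.96% and 1.02%, which are 9, 2 and 112 promoters. The E2A-type E-box CAGCTG stood in 15.4%, 9.8% and 15.0%, and the MYC-type E-box CACGTG in 9.4%, 11.8% and 9.78%. Both strands were searched, and the palindromic letters read alike on both. In the promoters printed above, the matches began at -65 in Edaradd, -230 in Erg and -183 in Notch3 for the PAX5 core and at -92 in Foxo1 for the EBF1 palindrome, counted from the RefSeq start. The Cd79a window held no match to these exact letters, and looser forms of the sites were not searched, so it may still hold such sites.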

How the data were processed

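RNA of 14 libraries in 7 groups of 2 was compared from the deposited exon counts per gene, made by the authors with HOMER on mm10 RefSeq transcripts without normalization and with no strand option, per the file headers. The submitters' processing notes also name STAR 2.6.0b-1 and HOMER 4.8 without saying which step they served. The EBF1 peaks carry the findPeaks score that the authors deposited. The capture contacts of Myc hold no Pax5 vector and were not used.

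All 14 libraries entered 1 fit (R 4.3.3, edgeR 4.0.16: filterByExpr, TMM scaling, glmQLFit and glmQLFTest) with a term per group. Contrasts were Pax5 over empty vector in Ebf1-KO and in Pax5-KO cells, the difference of both, and Pax5 over Ebf1 vector in Ebf1-KO cells. P-values were adjusted by Benjamini-Hochberg over the 14550 genes tested. Levels are TMM-scaled CPM; n is 2 per group, and depth was 16.1 to 42.1 M counts per library. A fold against a group with no count uses a floor of 3 counts over its libraries; counting intervals (exact, 95%) cover counting error only. The fit was tested on simulated data. Alternatives were DESeq2 1.42.0, RLE scaling, other filters (none, or 5 CPM in 2 libraries), a fit of the compared groups alone, a replicate block and leaving out each library. The empty-vector libraries of the Pax5-KO cells include 1 without a number. The block is the run tag of the column headers, which goes with the replicate number (the unnumbered library carries that of replicate 1) and was taken to pair the libraries; what it marks is not given in the sources used here. Deviations from the group mean of libraries with the same tag correlated by 0.188 between Pax5 and empty vector in Ebf1-KO cells, and by -0.0586 to 0.236 over the 21 pairs of groups, over 0.1 in 13 of them.

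Named genes are the 10 largest called changes in each direction for Pax5 in Ebf1-KO cells and 5 for the other contrasts (at least 10 CPM in the higher group), up to 4 called per list and direction, and Pax5, Ebf1 and Myc. The largest changes also had to have groups that did not overlap, in either genotype for the difference of effects. Some genes that this rule names are not reported here. Other names were chosen after their values were seen. The members and the lists were chosen with earlier results of these data known.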

Additional observations from a re-analysis of the deposited data

Results flagged for a closer look

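For 41 of the genes examined the effect of Pax5 differed between Ebf1-KO and Pax5-KO cells (interaction term of the edgeR fit). The threshold was Benjamini-Hochberg adjusted p under 0.05 over all genes tested. Genes were examined partly because they differed, so this count does not show how often effects differ. Of all 14550 genes tested 460 differed, or 3.16%. Some that differed, such as Ccl9, Tgfbr2 and Tgfb3, are not among the 41. Values are log2 effects in Ebf1-KO cells minus those in Pax5-KO cells. Genes of other lineages with a higher effect in Ebf1-KO cells were Flt3 (2.77), Notch1 (1.86), Cd28 (2.38), Grap2 (2.37), Emb (1.88), Cd7 (2.77), Tcf7 (2.85), Runx3 (1.74), Il2rb (2.98), Il2ra (3.36), Ccr9 (3.94), Itgal (2.55) and the NOTCH target Hes1 (5.49). Among B lineage and signalling genes they were Pax5 itself, the gene on the vector (2.25), Spib (1.94), Foxo1 (1.599) and Prkcb (1.66). They also included Cd93 (3.00), Cecr2 (3.12), Rasgrp3 (6.54) and the invariant chain Cd74 (4.52). Among genes of growth arrest and death they were Btg1 (2.19), Txnip (2.12), Bmf (2.38) and Pmaip1 (2.36). The membrane gene Lrrc15 (8.15) stood outside these classes.

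A lower effect in Ebf1-KO cells was found for Myc (-2.04), the ribosome assembly genes Gnl3 (-1.50), Nop56 (-1.66), Nop58 (-1.62) and Wdr43 (-1.65), the lactate transporter Slc16a1 (-2.14), Atp1b1 (-3.04) and Eps8l2 (-6.21). In 7 genes 1 of the groups had 3 counts or fewer, so the adjusted p of the difference is given in place of its size: Pcdh9 (0.00136), Alpl (0.00797), Slamf6 (0.0147), Zfp521 (0.0198), Enpep (0.0201), Col5a2 (0.027) and Itgax (0.0309). Sex differs with genotype in this contrast and cannot be told apart from it. The rise of Pax5 itself also differed, and its part in the other differences was not tested. Each rise is set against the empty-vector level of its own knockout. The deleted part of Pax5 is not named, so reads from the knocked-out gene may enter that level in Pax5-KO cells. Pax5 levels with the Pax5 vector were not compared between the knockouts. The difference in rise therefore does not show that Ebf1-KO cells received more Pax5. Of the 41, 26 kept the call without each of the 8 libraries in turn.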

How the results depend on the processing

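With Pax5 in Ebf1-KO cells, no filter gave 701 higher and 301 lower genes, DESeq2 831 and 368, the replicate block (run tag) 652 and 264, and leaving out a library 131 to 291 and 28 to 66. The difference between genotypes gave 694 and 246 with no filter, 804 and 343 with DESeq2, 209 lower with the block, 658 and 201 in the fit of the compared groups, and 110 to 268 and 21 to 74 without a library. Pax5 over Ebf1 vector gave 1316 higher with DESeq2 and 1204 in the fit of the compared groups, and 317 to 553 higher and 290 to 437 lower without a library. Pax5 in Pax5-KO cells gave 380 and 663 with no filter, 406 and 703 with DESeq2, 408 and 658 in the fit of the compared groups, and 95 to 144 and 117 to 251 without a library. Of the Pax5-repressed genes, 5 were higher and 2 lower with no filter, 2 and 3 with DESeq2, 2 and 3 with the block, 4 and 1 in the fit of the compared groups and 1 lower with the strict filter, and 0 to 1 were higher without a library. Ribosome assembly genes called lower were 7 with no filter and 1 to 3 without a library, and brakes called higher were 1 to 4. The log2 fold change of Myc ran from -1.34 to -0.90 without a library. The shares of genes with an EBF1 peak were 36.0%, 21.3% and 27.4% within 1 kb of the start, and 63.8%, 35.3% and 33.9% for peaks scoring above the median (called higher, called lower, all tested).

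Signs turned for Kdm5d (-0.028 with the strict filter, -0.0163 in the fit of the compared groups, 0.187 to -0.18 over the fits without a library, -0.15 without empty-vector replicate 2 and -0.18 without Pax5 replicate 2 of the Ebf1-KO cells), Atp1b1 (-0.30 to 0.057, above 0 without empty-vector replicate 2), Ebf1 (0.081 without empty-vector replicate 2), Vpreb1 (-0.69 without Pax5 replicate 1 to 2.11 without Pax5 replicate 2) and Igll1 (-0.15 without Pax5 replicate 2 to 3.73 without Pax5 replicate 1), none of which was called by edgeR with all libraries and no block. Of the other values, 2480 kept direction and side of the threshold, 223 lost and 61 gained a call, and 91 moved; the cause was not tested. Of 97 named genes called with Pax5 in Ebf1-KO cells, 46 were called without each library in turn and 79 under each of the other alternatives. The block added calls among the listed and named genes and took none away. With 2 libraries a group, small changes of low genes cannot be resolved.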

Other observations

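TGF-beta signalling, which restrains the growth of lymphoid cells, was not among the gene lists. The genes given here were chosen after their values were seen. Other members of the pathway are not given, so these genes do not show a change of the pathway. Tgfbr2, the receptor chain that binds the ligand, had 261 and 327 CPM in Ebf1-KO cells with Pax5 and 32.2 and 38.5 with the empty vector (log2 fold change 3.06 ± 0.36, edgeR adjusted p = 0.000149), against 105 ± 13.6 CPM in wild type (± SD, n = 2). Tgfbr3, a co-receptor, had 36.3 and 30.4 against 4.44 and 4.46 (log2 fold change 2.91 ± 0.30, adjusted p = 5.56e-05). Tgfb3, a ligand, had 68.0 and 68.2 against 6.86 and 10.2 (log2 fold change 3.00 ± 0.37, adjusted p = 0.000216). The Pax5 libraries stood above the empty-vector libraries in all 3 genes, and the calls held without each of the 4 libraries in turn. In Pax5-KO cells Tgfbr3 was also called higher, with 40.0 and 49.1 CPM with Pax5 and 10.4 and 11.4 with the empty vector (log2 fold change 2.03 ± 0.28, adjusted p = 0.000617). Tgfbr2 had 75.1 and 81.9 against 45.1 and 59.1 there (adjusted p = 0.459), and Tgfb3 had 32.0 and 38.1 against 62.8 and 66.7 (adjusted p = 0.214). By the interaction term the effects of Pax5 differed between the genotypes for Tgfbr2 (adjusted p = 0.011) and Tgfb3 (0.000775), and not detectably for Tgfbr3 (0.279).

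Of the 29 genes called higher with Pax5 in Ebf1-KO cells and lower in Pax5-KO cells, 3 are given here with their edgeR values. Cybb, a subunit of the phagocyte oxidase, had log2 fold changes of 0.85 in Ebf1-KO cells and -2.90 in Pax5-KO cells (adjusted p = 0.047 and 6.36e-06). Tlr9, a receptor for microbial DNA, had 1.27 in Ebf1-KO cells and -1.25 in Pax5-KO cells (adjusted p = 0.0254 and 0.0265). The cell death gene Pmaip1 had 1.20 in Ebf1-KO cells and -1.16 in Pax5-KO cells (adjusted p = 0.0384 and 0.0454). Neither Pmaip1 call held when any library of its comparison was left out, with log2 fold changes of -1.345 to -0.977 in Pax5-KO cells. Cybb and Tlr9 were not followed in those fits.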
